A study of Mus musculus with 9 samples.

Results

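A set of 10 imprinted genes that regulate growth was chosen by name as an imprinted gene network, a choice made because Peg3 had been among the largest differences between fibrillar and non-fibrillar collagen in these arrays. They are Peg3, Plagl1, Mest, Cdkn1c, Dlk1, Grb10, Igf2r, Ndn, H19 and Zim1, and 9 of the 10 had a named probe set, among 19938 genes measured. No probe set in the annotation used here carried the name of H19, a long non-coding RNA, so no value is given for it. The cells were D2.OR, a mouse mammary tumour line used to study tumour cells that stay dormant, all grown in 3D culture. Total RNA was hybridised to 9 Affymetrix arrays in 3 groups of 3: fibrillar collagen I, non-fibrillar collagen I and, by their titles, Matrigel, a basement membrane extract. The growth label of the Matrigel arrays names non-fibrillar collagen I, so that group rests on its titles. Their accession numbers come after those of the collagen arrays, and a batch that goes with them cannot be told apart from the matrix. All groups are cultures of the same line, and no label says that replicates were separate cultures, so p-values measure the spread between these arrays, which may be technical.

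Imprinted genes are expressed mainly from a single parental allele, set by DNA methylation laid down in the germ line. Many act on growth, with paternally expressed genes often promoting it and maternally expressed genes often restraining it. The members include brakes on growth (the cyclin-dependent kinase inhibitor Cdkn1c, the zinc finger protein Plagl1, the E2F-binding protein Ndn, the receptor adaptor Grb10, the IGF2-clearing receptor Igf2r and H19) and genes with other roles (the zinc finger proteins Peg3 and Zim1, the hydrolase-like protein Mest and the Notch-related ligand Dlk1). Plagl1 is described in mouse as a regulator of several of the others. In human breast, loss of PLAGL1 and of IGF2R has been described in tumours.

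Promoter sequences are shown for Peg3 and Igf2r because the results turn on these genes. Each is 250 bases before and 50 bases after the annotated start, from RefSeq on GRCm38.p6, printed on the strand of the gene with every CpG, the dinucleotide that imprinting methylates, in capitals. The Peg3 window lies on the minus strand at chr7:6730370-6730669 and the Igf2r window on the minus strand at chr17:12769657-12769956.
Peg3: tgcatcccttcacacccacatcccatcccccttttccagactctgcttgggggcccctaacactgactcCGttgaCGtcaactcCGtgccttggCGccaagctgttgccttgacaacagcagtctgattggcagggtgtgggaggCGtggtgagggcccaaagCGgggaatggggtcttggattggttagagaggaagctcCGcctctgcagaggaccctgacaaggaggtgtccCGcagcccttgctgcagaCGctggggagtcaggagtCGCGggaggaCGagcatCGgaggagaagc
Igf2r: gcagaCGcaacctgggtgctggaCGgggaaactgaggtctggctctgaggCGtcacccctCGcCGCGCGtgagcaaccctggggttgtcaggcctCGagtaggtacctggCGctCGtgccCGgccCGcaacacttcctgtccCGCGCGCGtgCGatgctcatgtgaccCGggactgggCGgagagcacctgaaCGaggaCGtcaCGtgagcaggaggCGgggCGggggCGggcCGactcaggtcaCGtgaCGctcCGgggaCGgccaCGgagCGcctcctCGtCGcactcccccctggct
The Peg3 window holds 13 CpGs and the Igf2r window 34, with a GC content of 61.3% and 70.7% and a ratio of observed to expected CpG of 0.46 and 0.91, against a median ratio of 0.38 over 32851 promoter windows of the same length. Windows were given for 8 of the 10 members, 11 windows in all, and 10 of these lay above that median. Some windows of Mest overlap almost wholly, so the 11 are not all separate sequences. The Peg3 start lies 164 bases from the start of Usp29, a paternally expressed deubiquitinase gene read in the opposite direction, and their windows share 263 bases. The core of the site bound by PLAGL1 in other studies, GGGGCCCC, a palindrome, was searched for, as was the YY1 core GCCATNTT, on both strands. The Peg3 window held the PLAGL1 core, ending 194 bases before the start, and it was the only one of the 11 member windows to do so; 1.08% of all windows hold it. The YY1 core was in 0 member windows and in 6.05% of all windows. At that share, 0 of 11 windows says little, and sequence more than 50 bases after a start was not searched.

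Peg3 and Igf2r were the members whose level differed most between the matrices, and both were lowest in non-fibrillar collagen. Values are log2 RMA units, so a difference of 1 is a 2-fold change. Peg3, which takes part in apoptosis signalling and growth control, was at 10.25, 10.57 and 10.49 in fibrillar collagen, 9.55, 9.58 and 9.65 in non-fibrillar collagen and 10.39, 10.84 and 10.80 in Matrigel. All 3 non-fibrillar arrays lay below the other 6, while fibrillar collagen and Matrigel overlapped. Igf2r, which binds IGF2 and carries it to lysosomes for breakdown, was at 9.75, 9.71 and 9.76 in fibrillar collagen, 9.17, 9.10 and 9.19 in non-fibrillar collagen and 9.41, 9.59 and 9.58 in Matrigel. The 3 groups did not overlap for Igf2r, with Matrigel between the collagens. Peg3 averaged 10.44 ± 0.16 in fibrillar collagen, 9.59 ± 0.05 in non-fibrillar collagen and 10.67 ± 0.25 in Matrigel (SD, n = 3 each), so Matrigel had the highest mean. Igf2r averaged 9.74 ± 0.02 in fibrillar collagen, 9.16 ± 0.05 in non-fibrillar collagen and 9.53 ± 0.10 in Matrigel, so fibrillar collagen had the highest mean. In bulk RNA, fewer expressing cells and less RNA per cell cannot be told apart.

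**Figure D1:**
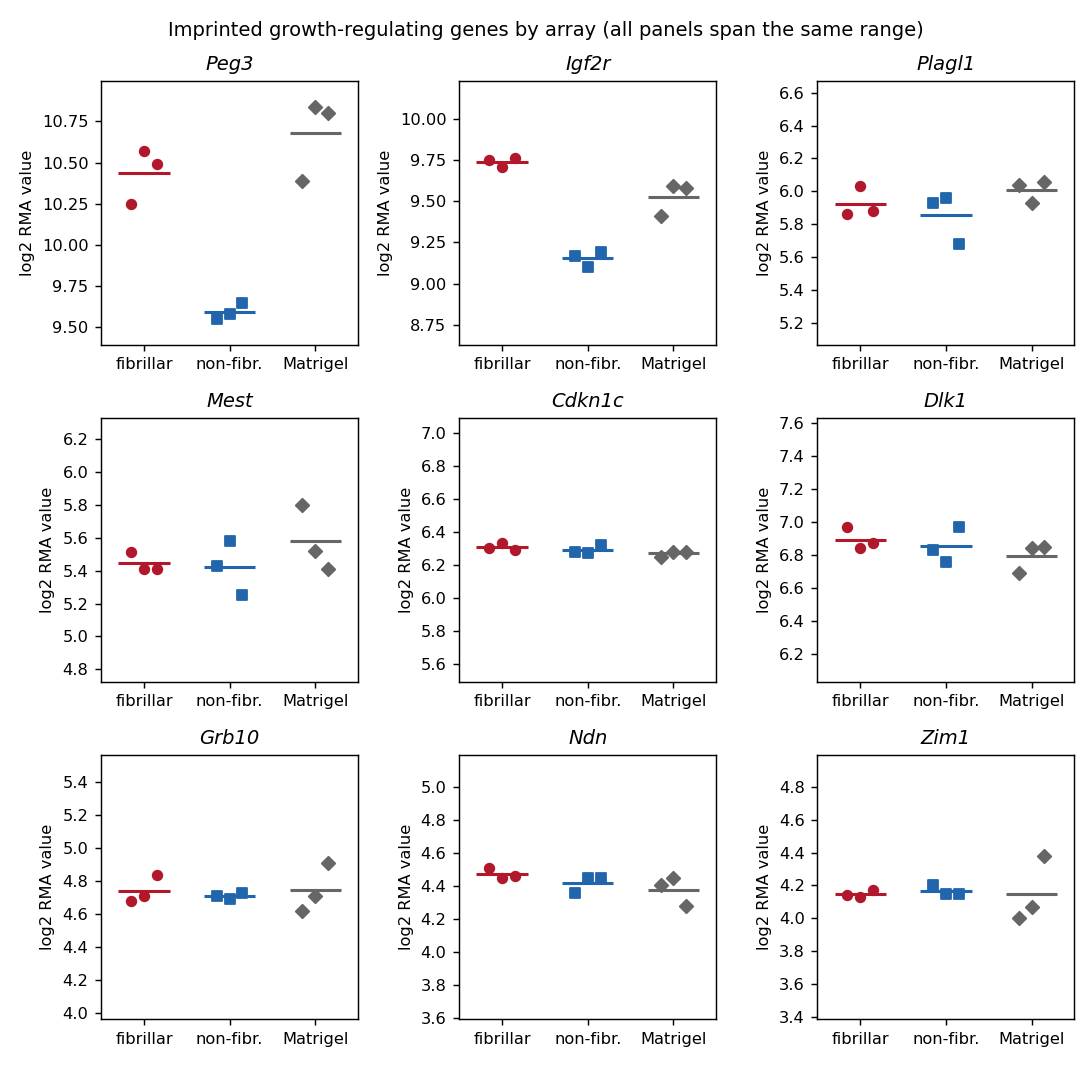
Log2 RMA value of each measured member on each array, by group, with the group mean as a line; every panel spans the same range, so heights of change can be compared. The 3 non-fibrillar arrays lie below the other 6 for Peg3 and Igf2r, and the groups overlap between the collagens for the other 7 genes.

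The remaining 7 members differed little. Plagl1, which can arrest the cell cycle, was at 5.86, 6.03 and 5.88 in fibrillar collagen, 5.93, 5.96 and 5.68 in non-fibrillar collagen and 6.04, 5.93 and 6.06 in Matrigel. Cdkn1c, which blocks G1 kinases, was at 6.30, 6.33 and 6.29, then 6.28, 6.27 and 6.32, and 6.25, 6.28 and 6.28 in the same order of groups. Both stayed within a narrow band in which the collagen groups overlapped, that of Cdkn1c spanning 0.08 log2 units over the 9 arrays, with the fibrillar arrays just above those in Matrigel. Ndn, which binds E2F proteins, was at 4.51, 4.45 and 4.46 in fibrillar collagen, 4.36, 4.45 and 4.45 in non-fibrillar collagen and 4.41, 4.45 and 4.28 in Matrigel. Grb10, which damps insulin and IGF receptor signalling, was at 4.68, 4.71 and 4.84 in fibrillar collagen, 4.71, 4.69 and 4.73 in non-fibrillar collagen and 4.62, 4.71 and 4.91 in Matrigel. For both, the Matrigel arrays spread the widest and covered the non-fibrillar values.

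Mest, first known from mesoderm, was at 5.51, 5.41 and 5.41 in fibrillar collagen, 5.43, 5.58 and 5.25 in non-fibrillar collagen and 5.80, 5.52 and 5.41 in Matrigel. Dlk1, which inhibits adipocyte differentiation, was at 6.97, 6.84 and 6.87 in fibrillar collagen, 6.83, 6.76 and 6.97 in non-fibrillar collagen and 6.69, 6.84 and 6.85 in Matrigel. Mest had its highest value on Matrigel replicate 1, and no group of either gene stood apart. Zim1, a maternally expressed neighbour of Peg3, was at 4.14, 4.13 and 4.17 in fibrillar collagen, 4.2, 4.15 and 4.15 in non-fibrillar collagen and 4.0, 4.07 and 4.38 in Matrigel. Matrigel replicate 3 carried the high Zim1 value, and Grb10 was highest on that array too. Of these 7 genes all but Dlk1 had a mean below 6.44, the median over all genes. Detection calls were not used here, so whether they were expressed above background was not tested.

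Fibrillar against non-fibrillar collagen is the contrast that led to the list, so its values are a description with no test. Peg3 was higher in fibrillar collagen by 0.84 ± 0.083 log2 units (SE), or 1.80-fold, with differences of 0.70, 0.99 and 0.84 for the same-numbered replicates 1, 2 and 3. That placed it 8th from the top of 19938 genes. Igf2r was higher by 0.59 ± 0.039, or 1.50-fold, with same-numbered differences of 0.58, 0.61 and 0.56, the 37th from the top. The other 7 members lay between -0.02 for Zim1 and 0.07 for Plagl1. Their 95% intervals reached at most 1.21-fold in either direction, the widest bound being 0.28 log2 units for Plagl1. The groups did not overlap for 2 of the 9 members, Peg3 and Igf2r, where 25.2% of all genes did not overlap; the median over the members was 0.04, and 0.01 over all genes.

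**Figure D2:**
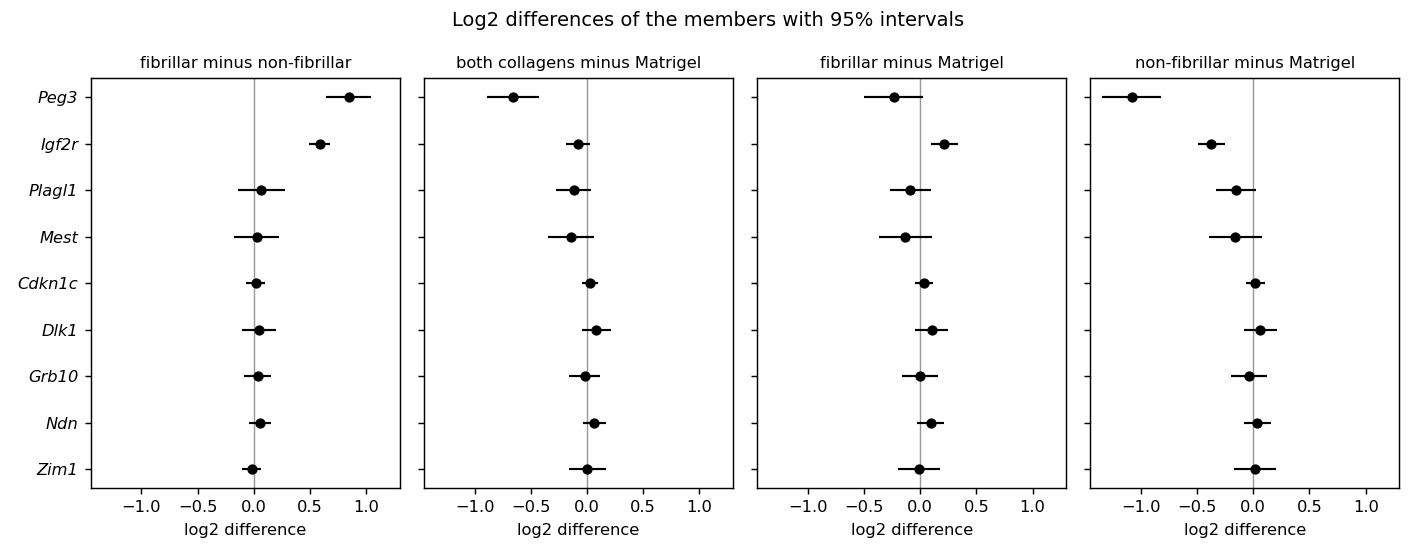
Log2 difference of each measured member in 4 comparisons, as points with 95% intervals from limma; positive values are higher in the group named first. Peg3 and Igf2r lie at 0.84 and 0.59 in fibrillar minus non-fibrillar collagen and at -1.08 and -0.37 in non-fibrillar collagen minus Matrigel, while the intervals of the other 7 genes all include 0. In fibrillar minus non-fibrillar collagen, which led to the list, and for Peg3 against Matrigel, the intervals are descriptions and not tests.

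Whether the collagens together differed from Matrigel was tested with the mean of both collagen groups minus Matrigel. This comparison is orthogonal to the contrast that led to the list. Earlier results of these arrays were known when Peg3 was chosen, and its low non-fibrillar arrays enter both comparisons. The p-value of Peg3 and its calls in the alternatives may therefore not be independent of that choice, and are no separate support. In limma, 1 of 9 members was called (adjusted p under 0.05), against 9.19% of all genes, so the share is close to the background. It was Peg3, which averaged 10.01 over the 6 collagen arrays and 10.67 in Matrigel. The collagen mean was lower by 1.58-fold (log2 -0.66 ± 0.10 SE, limma adjusted p = 0.0035). Most of this came from non-fibrillar collagen, at -1.08 relative to Matrigel. Fibrillar collagen was at -0.24, and its arrays overlapped those in Matrigel. Peg3 was called in all 16 alternatives, with adjusted p between 0.00080 and 0.025. Igf2r averaged 9.45 in collagen and 9.53 in Matrigel (-0.08 ± 0.047, adjusted p = 0.38), its fibrillar and non-fibrillar values lying on opposite sides of Matrigel. Without Matrigel replicate 1, 2 or 3 it was at -0.137, -0.048 or -0.051. The other 7 ranged from -0.15 for Mest to 0.08 for Dlk1, with adjusted p from 0.36 to 0.99 and intervals that reached at most 1.27-fold. The median difference was -0.02 over the members and 0.00 over all genes (0.004).

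Each collagen was then set against Matrigel. These comparisons share the Matrigel arrays with each other and the collagen arrays with the contrast behind the list, so Peg3, chosen for that contrast, is given with no test. Its SE and interval are descriptions. Peg3 was lower in non-fibrillar collagen than in Matrigel by 2.11-fold (-1.08 ± 0.12 SE), with same-numbered differences of -0.83, -1.26 and -1.15. In fibrillar collagen it was at -0.24 ± 0.12 relative to Matrigel, with a 95% interval from -0.50 to 0.03 and same-numbered differences of -0.13, -0.26 and -0.31. That value was -0.38 without Matrigel replicate 1, -0.145 without fibrillar replicate 1 and -0.155 without Matrigel replicate 2. Of the other 8 members, 1 was called in non-fibrillar collagen, against 13.8% of all genes: Igf2r, 1.29-fold lower (-0.37 ± 0.054, limma adjusted p = 0.0018), and called in all 17 alternatives. In fibrillar collagen 0 of the 8 were called by limma, against 3.82% of all genes, and 1 had an unadjusted p under 0.05. That was Igf2r at 0.21 ± 0.054 (adjusted p = 0.064, and 0.031 to 0.156 over its 17 alternatives, 3 of which called it), with all 3 fibrillar arrays above all 3 Matrigel arrays. Intervals of the remaining 7 reached at most 1.31-fold in non-fibrillar collagen and 1.29-fold in fibrillar collagen.

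Over the 9 arrays Peg3 and Igf2r had a Pearson r of 0.82, a description over arrays that share their groups. Among the other 7 members r ran from -0.79 to 0.84 over 21 pairs. The values behind these pairs span at most 0.55 log2 units. By the same measure, among 1155 genes with an SD of at least 0.2, the genes most like Peg3 were Npc1, which exports cholesterol from lysosomes (r = 0.991), the aminopeptidase Anpep (0.990), the ceramide kinase Cerk (0.990), the membrane scaffold Kidins220 (0.988) and the semaphorin receptor Plxna1 (0.987). In each of the 5, every non-fibrillar array lay below the other 6, which choosing them by r with Peg3 makes likely. The genes most like Igf2r, named after its values were seen, were perlecan, Hspg2 (0.978), the cadherin Fat1 (0.977), the adhesion protein Kirrel (0.969), the phosphatase Ptprf (0.965) and the lysophospholipid acyltransferase Lpcat1 (0.959).

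**Figure D3:**
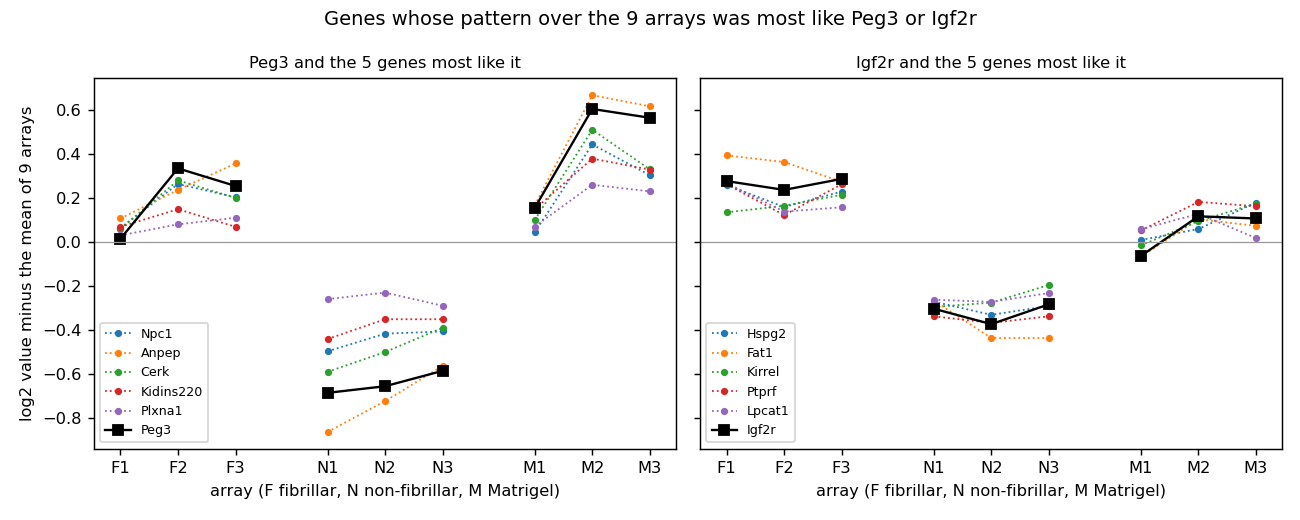
Log2 value minus the mean over 9 arrays for Peg3 (left) or Igf2r (right), in black, and the 5 genes with the highest Pearson r to it, in colour; F, N and M are fibrillar collagen, non-fibrillar collagen and Matrigel. All 3 N arrays lie below 0 in every line, and the M arrays lie highest on average for Peg3 but between the collagens for Igf2r. The coloured genes were chosen by r, which makes their likeness no separate result.

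The neighbours of the members in their imprinted domains were read next, 25 of 32 listed genes being measured. In both collagens minus Matrigel 1 of the 25 was called, against 9.19% of all genes, and their median was 0.04. It was Phlda2, a maternally expressed brake on placental growth that lies near Cdkn1c. Phlda2 was at 9.13, 9.29 and 9.24 in fibrillar collagen, 9.34, 9.32 and 9.38 in non-fibrillar collagen and 8.85, 8.75 and 8.86 in Matrigel. Every collagen array lay above every Matrigel array, a difference of 0.46 ± 0.046, or 1.38-fold (limma adjusted p = 0.00030), called in all 16 alternatives. Magel2, in the domain of Ndn, was at 0.13 ± 0.046 (adjusted p = 0.13), and Meg3, the maternally expressed non-coding partner of Dlk1, at 0.18 ± 0.065 (adjusted p = 0.14).

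Usp29, which shares its start region with Peg3 in the sequence above, was at 4.34, 4.55 and 4.43 in fibrillar collagen, 4.26, 4.33 and 4.23 in non-fibrillar collagen and 4.43, 4.56 and 4.46 in Matrigel. The non-fibrillar arrays were again the lowest, and the other groups overlapped, with a Pearson r to Peg3 of 0.90 over the 9 arrays. Non-fibrillar collagen minus Matrigel was -0.21 ± 0.061, or 1.16-fold lower (limma adjusted p = 0.047), a call lost in 9 of 17 alternatives, with adjusted p up to 0.161 without Matrigel replicate 2. Fibrillar minus non-fibrillar collagen was 0.17 ± 0.061 (adjusted p = 0.17), and both collagens minus Matrigel -0.13 ± 0.053 (adjusted p = 0.19). Its values lie near the low end of the scale. Igf2, the growth factor that Igf2r clears, was at 5.28, 5.44 and 5.29 in fibrillar collagen, 5.43, 5.15 and 5.25 in non-fibrillar collagen and 5.15, 5.28 and 5.28 in Matrigel, with all groups overlapping (both collagens minus Matrigel 0.07 ± 0.065, adjusted p = 0.62). Airn, the non-coding RNA antisense to Igf2r, named outside the rule for genes, was at 7.96, 8.34 and 7.77 in fibrillar collagen, 8.02, 8.09 and 7.97 in non-fibrillar collagen and 7.99, 8.30 and 7.98 in Matrigel. It overlapped between all groups. Mir335, a microRNA gene inside Mest and also outside the rule, was at 0.01 ± 0.043 in both collagens minus Matrigel (adjusted p = 0.91).

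Between the collagens 0 of the 25 neighbours were called by limma, against 6.40% of all genes. The smallest p belonged to Nap1l4, a histone chaperone at the end of the domain that holds Cdkn1c (-0.14 ± 0.037, adjusted p = 0.085, and 0.0493 among genes with a mean of at least 6), followed by Dhcr7, of cholesterol synthesis (0.12 ± 0.044), Usp29 and Phlda2 (-0.13 ± 0.050), with adjusted p from 0.17 to 0.20. Imprinted genes of other domains gave few calls too, with 26 of 28 measured. Against Matrigel 3 of these were called, all lower in collagen: Impact, which restrains the kinase GCN2 (-0.28 ± 0.037, adjusted p = 0.0016), and the paraoxonases Pon2 (-0.16 ± 0.034, adjusted p = 0.018) and Pon3 (-0.23 ± 0.061, adjusted p = 0.046). The call was kept in every alternative for Impact and lost in 2 of 16 for Pon2 (without Matrigel replicate 1 or 2) and in 8 of 16 for Pon3 (without any array but Matrigel replicate 2). Between the collagens Impact was higher in fibrillar collagen (0.25 ± 0.039, adjusted p = 0.020) and Commd1 lower (-0.31 ± 0.069, adjusted p = 0.0495). Impact lost that call whichever of the 6 arrays was left out (adjusted p 0.0567 to 0.0725), and Commd1 in 6 of 14 alternatives, the replicate block among them (adjusted p = 0.071). Impact was at 9.23, 9.17 and 9.17 in fibrillar collagen, 8.95, 8.97 and 8.89 in non-fibrillar collagen and 9.39, 9.33 and 9.30 in Matrigel. The order of its group means was that of Peg3, whose fibrillar and Matrigel arrays overlapped. The other genes with the smallest p were Inpp5f, a phosphoinositide phosphatase (-0.12 ± 0.058 against Matrigel, adjusted p = 0.27), and, between the collagens, the protease inhibitor Tfpi2 (0.39 ± 0.13, adjusted p = 0.14) and Pon3 (-0.12 ± 0.043, adjusted p = 0.19).

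**Figure D4:**
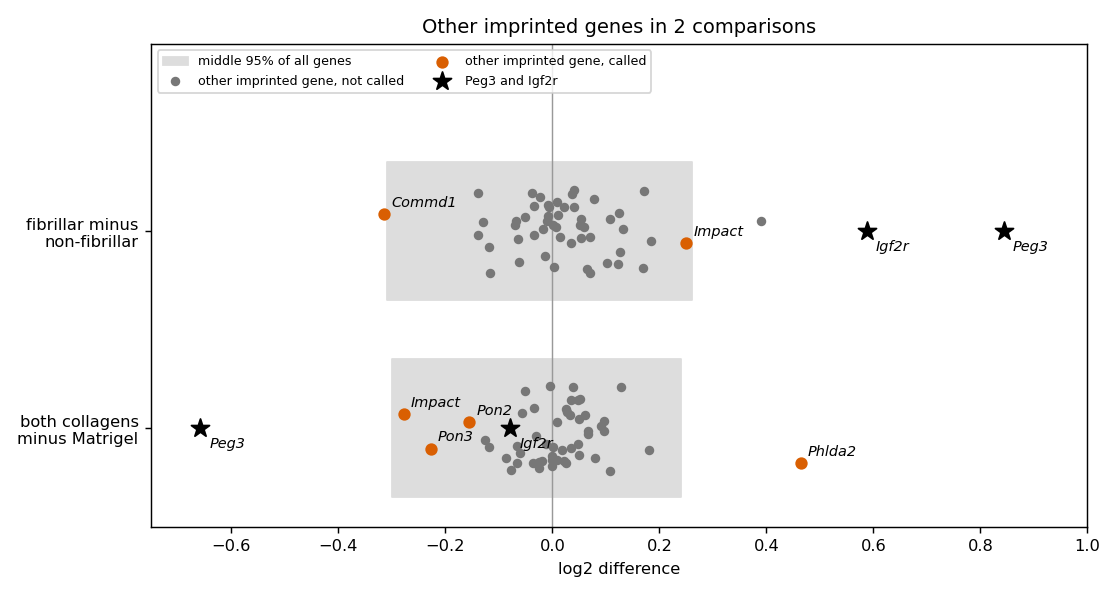
Log2 differences of 51 imprinted genes that are not members (circles, called in orange) and of Peg3 and Igf2r (stars), in fibrillar minus non-fibrillar collagen (top) and both collagens minus Matrigel (bottom); grey boxes hold the middle 95% of all genes, and vertical scatter only separates the points. Most imprinted genes lie within the grey boxes; Phlda2 at 0.46 and Peg3 at -0.66 lie outside in the lower row.

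RNA was measured for 19 of 19 listed genes whose proteins act on imprints or DNA methylation. Of these, 5 were called in both collagens minus Matrigel, against 9.19% of all genes, with a median of -0.02. Higher in collagen were Zfp57, the zinc finger protein that protects methylated imprints (0.68 ± 0.037, 1.60-fold, limma adjusted p = 1.4e-05), the hemimethyl-DNA reader Uhrf1 (0.34 ± 0.055, adjusted p = 0.0040) and the corepressor Trim28, named outside the rule (0.17 ± 0.036, adjusted p = 0.018). Lower were the methylcytosine oxidases Tet3 (-0.42 ± 0.048, 1.34-fold, adjusted p = 0.00071) and Tet2 (-0.33 ± 0.060, adjusted p = 0.0076). Zfp57 was at 7.74, 7.74 and 7.76 in fibrillar collagen, 8.02, 8.06 and 8.0 in non-fibrillar collagen and 7.15, 7.20 and 7.28 in Matrigel. Its groups did not overlap, and the order of their means was the reverse of that of Peg3, whose fibrillar and Matrigel arrays overlapped. Between the collagens Zfp57 alone of the 19 was called, lower in fibrillar collagen (-0.28 ± 0.034, adjusted p = 0.011), a call lost without fibrillar replicate 2 or 3 or non-fibrillar replicate 2 (adjusted p 0.0504 to 0.0562). Tet3 was at 0.21 ± 0.060 between the collagens (adjusted p = 0.099), and was called with all 9 arrays fitted (0.0447) and among genes with a mean of at least 6 (0.0449). The DNA methyltransferase Dnmt3b was at 0.14 ± 0.051 (adjusted p = 0.18) and the histone methyltransferase Ehmt2 at 0.10 ± 0.040 (adjusted p = 0.22).

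RNA of partners of the member proteins was measured for 21 of 25 listed genes. In both collagens minus Matrigel 7 were called, against 9.19% of all genes, 4 higher and 3 lower, with a median of 0.02. Cyclin D1, Ccnd1, which drives the kinases that growth brakes oppose, was higher in collagen (0.49 ± 0.043, 1.40-fold, limma adjusted p = 0.00013), as was Ccne1, cyclin E1, a target of Cdkn1c (0.17 ± 0.032, adjusted p = 0.012). Notch1, the receptor that Dlk1 is described to inhibit (-0.32 ± 0.058, adjusted p = 0.0080), and the growth factor Igf1 (-0.24 ± 0.045, adjusted p = 0.0093) were lower. Relative to Matrigel, Notch1 was at -0.06 in fibrillar collagen, where the groups overlapped, and at -0.58 in non-fibrillar collagen. Igf1 was at -0.25 and -0.23 in the same order. Ccne1 and Igf1 lost the call without Matrigel replicate 2 (adjusted p = 0.058 and 0.053). Between the collagens 4 of 21 were called, against 6.40%: Notch1 (0.51 ± 0.046, 1.43-fold, adjusted p = 0.0053), the insulin receptor substrate Irs1 (0.42 ± 0.050, adjusted p = 0.011) and the insulin receptor Insr (0.22 ± 0.043, adjusted p = 0.038) were higher in fibrillar collagen, and Ccne1 was lower (-0.18 ± 0.032, adjusted p = 0.029). Insr and Ccne1 lost that call with the replicate block (adjusted p = 0.055 and 0.061) and without any single array, and Irs1 without fibrillar replicate 2 or 3 (adjusted p = 0.053 and 0.055).

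Markers of cell types were read beside these values, outside the rule for named genes. Of 11 epithelial markers 5 lay below the median gene: Krt19, Krt5, Trp63, Cldn4 and Epcam, with means over the collagen arrays of 5.40, 5.72, 5.74, 5.86 and 6.15, and over the Matrigel arrays of 5.32, 5.79, 5.86, 5.80 and 5.94. Bright ones were Krt8, at 13.12 to 13.33 over the 9 arrays, Krt18, at 12.6 to 12.92, Krt14, at 11.21 to 11.56, and Cdh1, at 9.0 to 9.12. Vim, a mesenchymal marker read in the fibroblast list, was at 13.25 to 13.37. The mean level of the 11 was 8.42 to 8.44 in fibrillar collagen, 8.44 to 8.46 in non-fibrillar collagen and 8.28 to 8.34 in Matrigel. In both collagens minus Matrigel 4 of the 11 were called, against 9.19% of all genes: Krt7 (1.05 ± 0.033, 2.07-fold, limma adjusted p = 5.1e-07), Krt18 (0.25 ± 0.035, adjusted p = 0.0018) and Epcam (0.22 ± 0.044, adjusted p = 0.013) were higher in collagen, and Krt14, a basal keratin, was lower (-0.24 ± 0.034, adjusted p = 0.0023). Krt7 was at 10.40, 10.34 and 10.36 in fibrillar collagen, 10.68, 10.67 and 10.66 in non-fibrillar collagen and 9.50, 9.42 and 9.48 in Matrigel. The order of its group means was the reverse of that of Peg3.

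In both collagens minus Matrigel 9.19% of all genes were called. Of 9 fibroblast markers only Pdgfra was called there (-0.67 ± 0.081, limma adjusted p = 0.00094), and its group means followed the order of those of Peg3: 10.81, 10.94 and 11.0 in fibrillar collagen, 10.16, 10.12 and 10.44 in non-fibrillar collagen and 11.11, 11.36 and 11.28 in Matrigel. The mean level of the 9 markers was 7.36 to 7.46, 7.26 to 7.35 and 7.38 to 7.50 in those groups, and Dcn and Lum were at 4.58 or below everywhere. Cd68, alone of 7 macrophage markers, was called too, at 8.34 to 8.63 in fibrillar collagen, 7.56 to 7.67 in non-fibrillar collagen and 8.87 to 9.07 in Matrigel (both collagens minus Matrigel -0.96 ± 0.070, limma adjusted p = 5.1e-05). The mean of the macrophage markers was 5.28 to 5.37 in fibrillar collagen, 5.16 to 5.22 in non-fibrillar collagen and 5.39 to 5.40 in Matrigel; 6 of the 7 were below the median gene, with Ptprc at 5.12 or below. All 5 endothelial and all 4 measured adipocyte markers were below the median gene. In each list 1 was called, lower in the collagen mean: Kdr (-0.29 ± 0.074, limma adjusted p = 0.041) and Fabp4 (-0.92 ± 0.072, 1.89-fold, adjusted p = 7.6e-05). Relative to Matrigel, Kdr was at -0.10 in fibrillar collagen, where the groups overlapped, and at -0.47 in non-fibrillar collagen. The mean of the endothelial markers was 5.10 to 5.11 in fibrillar collagen, 4.97 to 5.08 in non-fibrillar collagen and 5.05 to 5.11 in Matrigel, and that of the adipocyte markers 5.02 to 5.14, 4.98 to 5.04 and 5.21 to 5.35 in those groups. Between the collagens 1 of 11 epithelial, 1 of 9 fibroblast, 1 of 7 macrophage, 0 of 5 endothelial and 0 of 4 adipocyte markers were called, against 6.40% of all genes. Krt7 was lower in fibrillar collagen (-0.30 ± 0.034, limma adjusted p = 0.0092), and Pdgfra (0.67 ± 0.095, adjusted p = 0.015) and Cd68 (0.83 ± 0.081, adjusted p = 0.0067) were higher. Calls of markers were not read in the alternatives. The part of these markers in the Peg3 and Igf2r values was not tested.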

How the data were processed

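The values are the authors' deposited log2 expression per probe set, for which the submitters' processing notes name Affymetrix Power Tools and RMA, on 9 arrays in 3 groups taken from the sample titles. RMA corrects background, equalises the distributions of arrays and summarises probes, so a shift common to most genes would not show. Software versions and the number of runs were not stated in what was used here. There were 35512 probe sets, between 2.11 and 14.08 and array medians from 5.98 to 6.05. Pearson's r over probe sets was 0.994 to 0.996 within groups and 0.992 to 0.996 between them, and the closest arrays differed by 0.127 on average. The number of arrays limits the precision.

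Platform annotation gave 1 gene symbol to 21789 probe sets, several to 1621 and none listed to 12102; 21698 matched a current gene ID and 0 were renamed. The probe set with the highest mean stood for the gene (each measured member had 1), which left 19938 genes, with no filter on dim genes. Differences were fitted per gene with limma 3.58.1 in R 4.3.3 (lmFit, eBayes, two-sided, Benjamini-Hochberg over all genes, threshold 0.05): collagen against collagen on its 6 arrays, comparisons with Matrigel on all 9. The code was tested on simulated data. Promoters were read from RefSeq windows, whose build is not tied to the arrays.

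Same-numbered arrays deviated together across genes for the collagens (r = 0.221, 0.143 and 0.242). With Matrigel r was 0.253, 0.103 and 0.0968 for fibrillar collagen and 0.125, 0.0449 and 0.135 for non-fibrillar collagen. This is a hint of pairing that no label states. The main fits did not pair arrays, and the replicate block was an alternative. Members and lists were chosen with earlier results of these data known. Genes named were all members, the 4 with the smallest p of each of 4 further lists (domain neighbours, other domains, imprint maintenance, partners) in the collagen comparison and in both collagens minus Matrigel, Igf2 and Meg3, and the 5 most like Peg3; cell type markers were named outside this rule. Alternatives were the arrays fitted, the replicate block, repeated quantile normalization, median centring, array weights, a trended robust prior, averaged probe sets, a filter on dim genes and leaving out each array.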

Additional observations from a re-analysis of the deposited data

How the results depend on the processing

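The number of genes called in both collagens minus Matrigel was 1832, and 1021 to 1671 when an array was left out, the lowest without Matrigel replicate 2. In fibrillar collagen minus Matrigel it was 762, against 1211 among genes with a mean of at least 6, 460 with only the groups compared, and 353 to 718 with an array left out, the lowest without Matrigel replicate 2. In non-fibrillar collagen minus Matrigel it was 2755, and 1814 to 2637 with an array left out, again lowest without Matrigel replicate 2. Between the collagens it was 1277, against 2111 among genes with a mean of at least 6, and 150 to 569 with an array left out, the lowest without fibrillar replicate 3. The filter tests fewer genes and the smaller fits use fewer arrays; otherwise the cause was not tested. In fibrillar collagen minus Matrigel 37.9% of the calls were higher, and 50% after quantile normalization again.

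With the replicate block 2272 genes were called in both collagens minus Matrigel and 1285 between the collagens, and the block changed no call of a member. Directions turned only for members that were not called, and turns of such members between the collagens were not read. Grb10 ran from -0.083 to 0.059 in both collagens minus Matrigel and from -0.100 to 0.042 in non-fibrillar collagen minus Matrigel when an array was left out, and Ndn from -0.013 to 0.071 in non-fibrillar collagen minus Matrigel. Zim1 ran from -0.082 to 0.108 in fibrillar collagen minus Matrigel and from -0.061 to 0.129 in non-fibrillar collagen minus Matrigel, and was at -0.017 there with array weights. Main values near 0 changed sign too. Zim1 ran from -0.072 to 0.119 in both collagens minus Matrigel, and Grb10 from -0.066 to 0.077 in fibrillar collagen minus Matrigel. Igf2r in fibrillar collagen minus Matrigel was called after quantile normalization again (0.233), among genes with a mean of at least 6 and with a trended robust prior.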
